A study of Mus musculus with 2 samples.

Results

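A set of 10 genes known from the lining of blood vessels were followed in RNA sequencing of cultured mouse oligodendrocyte lineage cells, namely Cdh5, Esam, Thbd, Kdr, Slco1c1, Pecam1, Flt1, Procr, Tie1 and Cd34. The genes were picked by symbol from the gene tables of both libraries, with their values in these same libraries already known, so every difference below is a description and carries no test. All 10 had reads in both libraries, out of 18651 genes listed in at least one of them. There was 1 Seh1cKO library, with the genotype given as mutant and the name of a conditional knockout of Seh1l, a nuclear pore and GATOR complex gene. There was 1 control library, with the genotype given as wild type. Both were made from C57BL/6 mice at postnatal days 4 to 7, from precursor cells of the cortex selected by immunopanning on anti-GalC and anti-O4 plates. The cells were first grown with 2% B-27, 1% N2, PDGF-AA and bFGF at 20 ng/ml each, CNTF at 10 ng/ml and NT3 at 1 ng/ml. Differentiation was started by adding 60 nM triiodothyronine (T3) and taking away PDGF-AA, NT3 and bFGF, and both libraries were taken on day 2 of it. For neither library do the sources used here give a Cre driver, the deleted exons, the sex or the number of animals.

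Endothelial cells form the inner wall of vessels and are sealed to each other by adherens and tight junctions. VEGF receptors and the Tie receptors relay growth and quiescence signals to them, and thrombomodulin and the protein C receptor keep the blood in contact with them from clotting. In the brain these cells also carry the transporters of the blood-brain barrier. Several of the genes are also expressed elsewhere: Thbd in mesothelium and keratinocytes, Cd34 in fibroblasts and blood progenitors, Pecam1 in platelets and leukocytes, Procr in blood stem cells, and Slco1c1 in astrocytes. In bulk RNA such as this, a difference in the number of cells of a type cannot be told apart from a difference in RNA per cell.

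The libraries held 20599573 assigned reads in Seh1cKO and 20730124 in control. Seh1l was at 18.5 CPM (assigned reads per 1000000 of the library) in Seh1cKO and 32.1 CPM in control. Olig1 and Olig2, transcription factors that define the oligodendrocyte lineage, were at 873 and 648 CPM in Seh1cKO and at 864 and 496 CPM in control. Xist had 7025 reads in Seh1cKO and 18 in control, and the Y-linked Uty had 0 reads in Seh1cKO and 220 in control, so genotype and sex-linked expression cannot be told apart. The 13758 genes whose 2 CPM values averaged 1 or more are called measured here. A log2 ratio is log2 of CPM + 1 in Seh1cKO minus the same in control, and 2-fold means a log2 ratio of 1 or more, or -1 or less. For a single gene the fold is the plain CPM ratio, with no pseudocount, given with an exact 95% Clopper-Pearson interval that covers counting error only.

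The promoter windows of 4 of the genes are shown first, because they set the most separated gene with a window (Cd34) and the moderately separated Slco1c1 beside the 2 VEGF receptors, whose levels lay closest together. Each window runs from 250 bases before to 50 bases after an annotated start, 5′ to 3′ on the gene's strand. The windows are from the RefSeq promoter table of GRCm38.p6, in which 6 of the 10 genes had a window. Those of Cd34 and Slco1c1 begin 250 bases before the gene span given below. Those of Kdr and Flt1 lie wholly inside their spans, whose 5′ ends are at 75979072 for Kdr and 147726438 for Flt1. The windows thus differ in their position within the gene. Capitals mark AGGAAG or its reverse complement CTTCCT, the core that the endothelial ETS factors ERG and FLI1 bind.
Cd34 (chr1:194938571-194938870, plus strand): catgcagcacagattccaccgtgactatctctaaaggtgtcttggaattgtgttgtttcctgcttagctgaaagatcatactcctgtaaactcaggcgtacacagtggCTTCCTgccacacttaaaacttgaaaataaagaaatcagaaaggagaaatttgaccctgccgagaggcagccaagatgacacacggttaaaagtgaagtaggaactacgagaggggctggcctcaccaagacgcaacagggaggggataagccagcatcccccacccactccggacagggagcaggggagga
Slco1c1 (chr6:141524104-141524403, plus strand): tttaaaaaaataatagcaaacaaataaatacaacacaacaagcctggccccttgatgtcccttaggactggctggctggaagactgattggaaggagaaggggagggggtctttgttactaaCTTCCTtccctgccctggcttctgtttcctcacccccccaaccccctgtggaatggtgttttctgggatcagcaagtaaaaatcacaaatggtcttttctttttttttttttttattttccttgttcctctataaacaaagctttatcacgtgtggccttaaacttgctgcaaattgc
Flt1 (chr5:147725962-147726261, minus strand): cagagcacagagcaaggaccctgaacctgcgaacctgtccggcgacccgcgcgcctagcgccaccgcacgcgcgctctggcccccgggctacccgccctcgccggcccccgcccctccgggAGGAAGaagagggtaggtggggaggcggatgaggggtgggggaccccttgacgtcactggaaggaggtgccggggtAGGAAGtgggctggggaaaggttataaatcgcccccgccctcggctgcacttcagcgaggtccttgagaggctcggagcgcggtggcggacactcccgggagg
Kdr (chr5:75978406-75978705, minus strand): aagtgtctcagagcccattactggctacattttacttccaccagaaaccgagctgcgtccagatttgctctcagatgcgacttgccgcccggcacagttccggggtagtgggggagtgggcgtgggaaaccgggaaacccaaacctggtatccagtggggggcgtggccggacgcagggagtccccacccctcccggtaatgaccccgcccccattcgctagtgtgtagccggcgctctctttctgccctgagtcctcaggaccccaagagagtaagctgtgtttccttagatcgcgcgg

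The AGGAAG core was found once in the Cd34 and Slco1c1 windows, at 2 places in the Flt1 window and at 2 in that of Tie1, and not in those of Kdr and Procr. That makes 4 of 6 windows, against 35.4% of all 32851 windows of the table, and both strands were searched. Of 6 other motifs searched the same way, Procr held TGACTCA, bound by AP-1 factors and present in 5.20% of windows, and Tie1 held CCACACCC, bound by KLF factors and present in 3.56%. The general ETS motif CCGGAAG (8.86% of windows), the joined forkhead and ETS motif AACAGGAA (2.65%), the GATA motif AGATAA (11.2%) and the SOX motif AACAAT (10.7%) were in none of the 6. AACAGGAA shares 5 letters with AGGAAG. A match says only that these letters stand in the window. The Cd34 and Slco1c1 windows, from genes higher in Seh1cKO, and the Flt1 window, from a gene whose counts did not separate the libraries, all held the ETS core.

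Thbd, Cdh5, Cd34 and Esam, 4 of the 10 genes, were at least 2-fold higher in Seh1cKO, and none was as much lower. Among all measured genes 2.86% were that much higher and 1.29% that much lower, and nothing is read from the comparison because the genes were chosen on these values. The count was also 4 over all listed genes with no floor, where 2.25% of genes passed, and on FPKM, where 1.48% of measured genes passed. Of the 10 genes 9 were measured, Tie1 being under the floor. Those 9 had log2 ratios between -0.09 and 3.05 with a median of 0.96, beside a median of 0.07 over all measured genes. The 5 measured genes that did not pass 2-fold ran up to 0.96 (Slco1c1), and the lowest of the 4 that did was Esam at 1.66. For 7 of the 9, the counting interval of the ratio lay wholly above 1, which was so for 35.5% of measured genes. Summed over all 10, there were 2370 reads in Seh1cKO and 793 in control, a ratio of 3.01 (2.77 to 3.26). The 4 genes past 2-fold gave 1292 of these reads in Seh1cKO and 148 in control. Without them and Slco1c1 the other 5 gave 412 reads in Seh1cKO and 311 in control, a ratio of 1.33 (1.15 to 1.55).

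**Figure D1:**
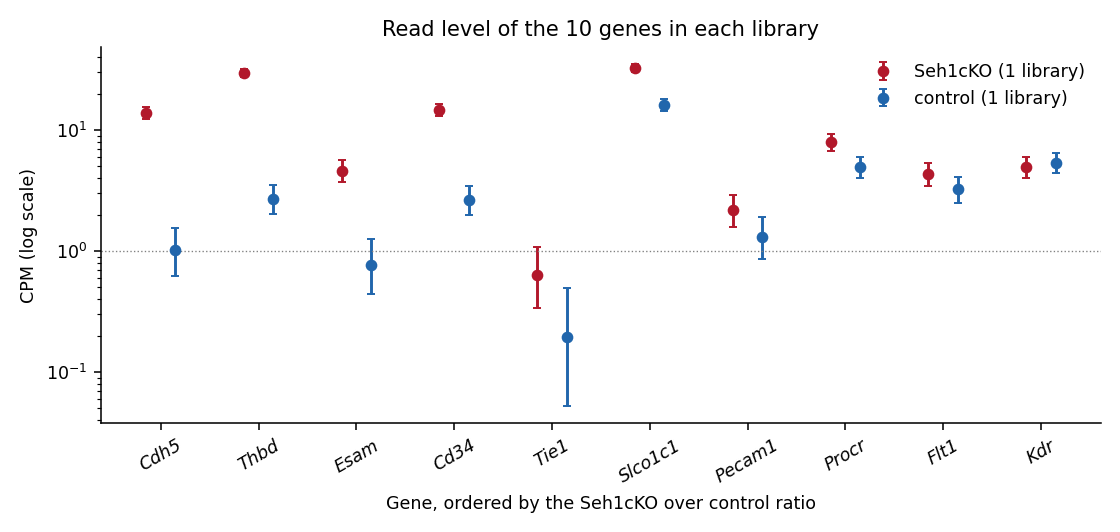
CPM of each gene (log scale) in the Seh1cKO library (red) and the control library (blue), with bars for the exact 95% Poisson interval of the count; the dotted line marks 1 CPM. Genes run from the largest ratio (Cdh5, 13.8 CPM in Seh1cKO and 1.01 CPM in control) to the smallest (Kdr, 4.95 CPM in Seh1cKO and 5.35 CPM in control).

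Of the junction genes, Cdh5 and Esam were past 2-fold and Pecam1 was not. Cdh5 (Entrez 12562, GRCm38 chromosome 8, 104101613 to 104144504, plus strand, 12 exons) encodes VE-cadherin, the adhesion protein of endothelial adherens junctions. It had 284 reads in Seh1cKO, or 13.8 CPM, and 21 reads in control, or 1.01 CPM. The ratio was 13.6 (8.73 to 22.3), the 16th highest log2 ratio of the 13758 measured genes. Esam (Entrez 69524, chromosome 9, 37528089 to 37538319, plus strand, 7 exons) encodes an immunoglobulin-type protein of endothelial tight junctions, also found on platelets. It had 95 reads in Seh1cKO, or 4.61 CPM, and 16 reads in control, or 0.772 CPM. Its ratio was 5.98 (3.50 to 10.9), with an interval wholly above 2. Pecam1 (Entrez 18613, chromosome 11, 106654213 to 106715281, minus strand, 16 exons) encodes CD31, an immunoglobulin-type protein at endothelial contacts. It had 45 reads in Seh1cKO, or 2.18 CPM, and 27 reads in control, or 1.30 CPM, a ratio of 1.68 (1.02 to 2.81). The interval of Pecam1 lay wholly below that of Cdh5 and wholly below that of Esam. The deposited mean transcript length of Pecam1, listed with 4 RefSeq transcripts, was 3176 bases in Seh1cKO and 3278 in control, so its FPKM ratio of 1.74 differs slightly from its CPM ratio.

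Partners of these junction proteins mostly differed little. All 14 genes of the partner list were measured. Of these F11r was past 2-fold upwards and none downwards, beside 2.86% and 1.29% of all measured genes. The other 13 had smaller differences, and the median log2 ratio was 0.25. Ctnnb1, the beta-catenin that binds the tails of classical cadherins, was at 786 CPM in Seh1cKO and 658 CPM in control, a ratio of 1.19 (1.17 to 1.22). Ctnnd1, the p120 catenin that keeps cadherins at the surface, was at 152 CPM in Seh1cKO and 106 CPM in control, a ratio of 1.43 (1.35 to 1.51). F11r, which encodes the tight junction protein JAM-A of epithelia and endothelia, had 88 reads in Seh1cKO and 22 in control, a ratio of 4.03 (2.50 to 6.75). N-cadherin (Cdh2), which neural cells use, was at 409 CPM in Seh1cKO and 363 CPM in control. Per transcript length, Cdh2 was at 83.3 FPKM in Seh1cKO and 73.8 FPKM in control, where Cdh5 was at 3.41 FPKM in Seh1cKO and 0.25 FPKM in control.

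Both members of the protein C pathway on the cell surface were higher in Seh1cKO, by different amounts. Thbd (Entrez 21824, chromosome 2, 148404471 to 148408188, minus strand, a single exon) encodes thrombomodulin, which turns thrombin from a clotting enzyme into an activator of protein C. It had 613 reads in Seh1cKO, or 29.8 CPM, and 56 reads in control, or 2.70 CPM. The ratio was 11.02 (8.37 to 14.8), and its log2 ratio of 3.05 was the 11th highest of all measured genes and the highest of the 10 genes. Procr (Entrez 19124, chromosome 2, 155751125 to 155755478, plus strand, 4 exons) encodes the protein C receptor, which presents protein C to the thrombin and thrombomodulin pair. It had 163 reads in Seh1cKO, or 7.91 CPM, and 102 reads in control, or 4.92 CPM, a ratio of 1.61 (1.25 to 2.08). The counting intervals of these partners did not overlap. Thbd gave 25.9% of the reads of the 10 genes in Seh1cKO and 7.06% in control.

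In the coagulation and fibrinolysis list all 15 measured genes of 23 listed had a log2 ratio above 0, beside 60.9% of all measured genes. Their median was 0.85. Of the 15, 4 were at least 2-fold higher, beside 2.86% of all measured genes, and none at least 2-fold lower. Protein C itself (Proc), made mainly by the liver, had 1 read in Seh1cKO and 2 in control. Plau, the urokinase that activates plasminogen, had 386 reads in Seh1cKO and 53 in control, a ratio of 7.33 (5.49 to 9.96). Its receptor Plaur had 170 reads in Seh1cKO and 29 in control, a ratio of 5.90 (3.96 to 9.08). Tfpi, an inhibitor of the tissue factor pathway, had 130 reads in Seh1cKO and 33 in control, a ratio of 3.96 (2.69 to 6.00). F2rl1, the protease-activated receptor PAR2, had 42 reads in Seh1cKO and 8 in control, a ratio of 5.28 (2.45 to 13.0). The thrombin receptor F2r was at 110 CPM in Seh1cKO and 90.8 CPM in control, and tissue factor (F3), abundant in astrocytes, at 165 CPM in Seh1cKO and 134 CPM in control. Klf2 and Klf4, transcription factors known to raise Thbd in endothelium, were at 3.35 and 19.1 CPM in Seh1cKO and at 2.07 and 9.45 CPM in control, with ratios of 1.61 (1.09 to 2.42) and 2.02 (1.70 to 2.41).

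The VEGF receptors Kdr and Flt1 did not share the difference of Thbd and Cdh5. Kdr (Entrez 16542, chromosome 5, 75932827 to 75979072, minus strand, 30 exons) encodes VEGFR2, the main signalling receptor for VEGF-A. It had 102 reads in Seh1cKO, or 4.95 CPM, and 111 reads in control, or 5.35 CPM. The ratio was 0.925 with an interval of 0.700 to 1.22, so a 2-fold difference in either direction lies outside it as far as counting error goes. Kdr was the only one of the 10 genes with a ratio below 1. Flt1 (Entrez 14254, chromosome 5, 147561604 to 147726438, minus strand, 30 exons) encodes VEGFR1, which binds VEGF-A tightly and limits its access to VEGFR2. It had 89 reads in Seh1cKO, or 4.32 CPM, and 67 reads in control, or 3.23 CPM, a ratio of 1.34 (0.963 to 1.86). Both intervals hold 1, and the difference was not detectable at this depth.

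Tie1 was near the limit of detection. Tie1 (Entrez 21846, chromosome 4, 118471191 to 118489849, minus strand, 23 exons) encodes an endothelial receptor that modulates angiopoietin signalling through Tek. It had 13 reads in Seh1cKO, or 0.631 CPM, and 4 reads in control, or 0.193 CPM. The ratio was 3.27 with an interval of 1.01 to 13.8, and its log2 ratio with the pseudocount was 0.45. Tek, the angiopoietin receptor Tie2, had 3 reads in Seh1cKO and 4 in control, at or close to the 3 reads that a count of 0 allows.

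Most ligands and partners of both receptor families were within 2-fold. Of 14 listed ligands, coreceptors, related receptors and regulators, 11 were measured, and the median log2 ratio was 0.18. Of the 11, 1 was at least 2-fold higher and none at least 2-fold lower, beside 2.86% and 1.29% of all measured genes. Vegfa, the ligand of Kdr and Flt1, was at 193 CPM in Seh1cKO and 228 CPM in control, a ratio of 0.846 (0.810 to 0.882). Vegfb was at 79.3 CPM in Seh1cKO and 71.9 CPM in control, and Pgf, a ligand of Flt1, at 21.8 CPM in Seh1cKO and 26.8 CPM in control. Angpt1, the activating ligand of Tek, was at 31.3 CPM in Seh1cKO and 34.5 CPM in control. Angpt2, its context-dependent antagonist, was the gene past 2-fold, with 180 reads in Seh1cKO and 54 in control, a ratio of 3.35 (2.46 to 4.64). Flt4, the VEGF-C receptor of lymphatic vessels, had 47 reads in Seh1cKO and 14 in control, a ratio of 3.38 (1.83 to 6.64), while its log2 ratio with the pseudocount was 0.97. Likewise Svep1 had 46 reads in Seh1cKO and 14 in control, a ratio of 3.31 (1.79 to 6.51), and a log2 ratio of 0.95. The coreceptor Nrp1, which axons and glia also carry, was at 61.4 CPM in Seh1cKO and 54.0 CPM in control. Per length, Vegfa was at 59.8 FPKM in Seh1cKO and 72.6 FPKM in control, where Kdr was at 0.90 FPKM in Seh1cKO and 0.97 FPKM in control.

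Cd34 was past 2-fold while its relatives were not. Cd34 (Entrez 12490, chromosome 1, 194938821 to 194961292, plus strand, 8 exons) encodes a sialomucin on the surface of vessels, blood progenitors and some fibroblasts. It had 300 reads in Seh1cKO, or 14.6 CPM, and 55 reads in control, or 2.65 CPM, a ratio of 5.49 (4.11 to 7.46). Its deposited mean transcript length was 2511 bases in Seh1cKO and 2557 in control, over 2 RefSeq transcripts, and its FPKM ratio was 5.60. Podxl, podocalyxin, the related sialomucin of vessels and podocytes, was at 73.9 CPM in Seh1cKO and 112 CPM in control, a ratio of 0.662 (0.620 to 0.707). Podxl2 was at 185 CPM in Seh1cKO and 212 CPM in control, a ratio of 0.871 (0.834 to 0.910). The adaptors Crk and Crkl, of which Crkl binds the Cd34 tail, had ratios of 1.07 each. Of the 5 genes of this list none was past 2-fold, and Emcn, endomucin, had 1 read in Seh1cKO and 2 in control.

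Slco1c1 was the most abundant of the 10 genes in both libraries. Slco1c1 (Entrez 58807, chromosome 6, 141524354 to 141570177, plus strand, 15 exons) encodes OATP1C1, a transporter of thyroxine at the blood-brain barrier and in astrocytes. It had 666 reads in Seh1cKO, or 32.3 CPM, and 334 reads in control, or 16.1 CPM. The ratio was 2.01 (1.76 to 2.30), which the pseudocount brought to a log2 ratio of 0.96, just under the 2-fold line. Slco1c1 gave 28.1% of the reads of the 10 genes in Seh1cKO and 42.1% in control. The astrocyte list, whose cells also express Slco1c1, had a median log2 ratio of -0.23. Of its 11 measured genes 8 were lower in Seh1cKO and 3 higher. Gfap and S100b were the 2 at least 2-fold lower, beside 1.29% of all measured genes, and none was at least 2-fold higher. The list summed to 8089 CPM in Seh1cKO and 12308 CPM in control. Gfap alone gave 2214 CPM in Seh1cKO and 5200 CPM in control of these sums. The part of astrocytes in the Slco1c1 value was not tested.

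Other genes of thyroid hormone handling, of interest in a culture driven by T3, were listed with relatives of Slco1c1. Most of the list lay within 2-fold. Of 10 measured genes 9 had a log2 ratio above 0, beside 60.9% of all measured genes, and the median was 0.61. Dio2 and Slco2a1 were the 2 at least 2-fold higher, beside 2.86% of all measured genes, and none was at least 2-fold lower. Dio2, the deiodinase that makes T3 from thyroxine, was at 131 CPM in Seh1cKO and 60.3 CPM in control, a ratio of 2.18 (2.04 to 2.33). Slco2a1, a prostaglandin transporter of the same family as Slco1c1, had 52 reads in Seh1cKO and 7 in control, a ratio of 7.48 (3.38 to 19.5). Slco1a4, another organic anion transporter of brain vessels, had 60 reads in Seh1cKO and 40 in control, a ratio of 1.51 (0.995 to 2.31).

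**Figure D2:**
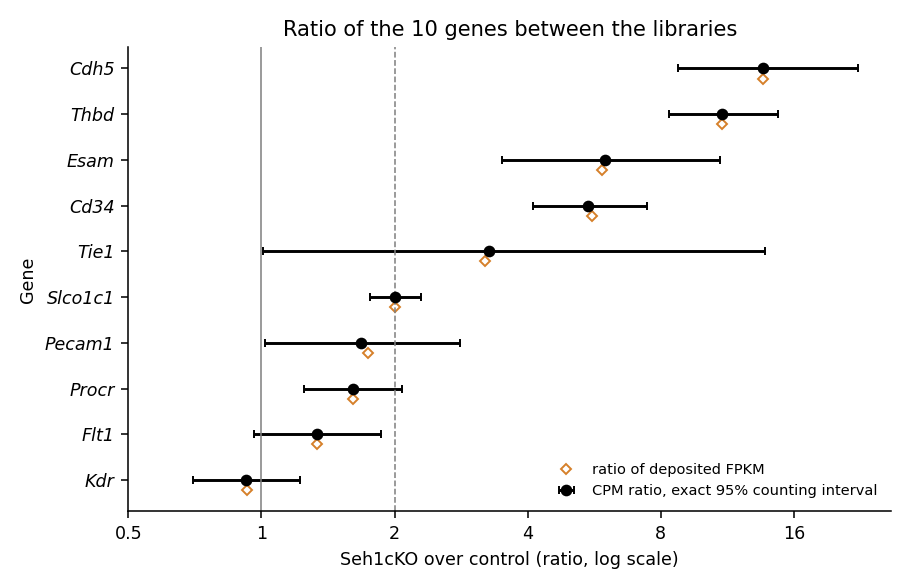
Ratio of Seh1cKO over control for each gene (log scale), as CPM with the exact 95% counting interval (black) and as deposited FPKM (orange diamonds); lines mark equality and 2-fold. The intervals of Cdh5, Thbd, Esam and Cd34 lie wholly above 2, those of Kdr and Flt1 hold 1, and the FPKM ratios stay close to the CPM ratios.

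Levels between genes can be compared only per transcript length, in the deposited FPKM. In the Seh1cKO library the order was Slco1c1 (10.1 FPKM), Thbd (7.93), Cd34 (5.77), Procr (5.29), Cdh5 (3.41), Esam (2.48), Kdr (0.90), Pecam1 and Flt1 (0.68 each) and Tie1 (0.16). The counting intervals of neighbours in that order overlapped for Cd34 and Procr, for Cdh5 and Esam, and among Kdr, Pecam1 and Flt1. In the control library the order was Slco1c1 (5.03 FPKM), Procr (3.29), Cd34 (1.03), Kdr (0.97), Thbd (0.72), Flt1 (0.51), Esam (0.42), Pecam1 (0.39), Cdh5 (0.25) and Tie1 (0.05). There the intervals of all neighbours from Cd34 down to Cdh5 overlapped. Thbd and Cdh5 thus stood higher in the order of Seh1cKO than in that of control, while Slco1c1 was first and Tie1 last in both.

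**Figure D3:**
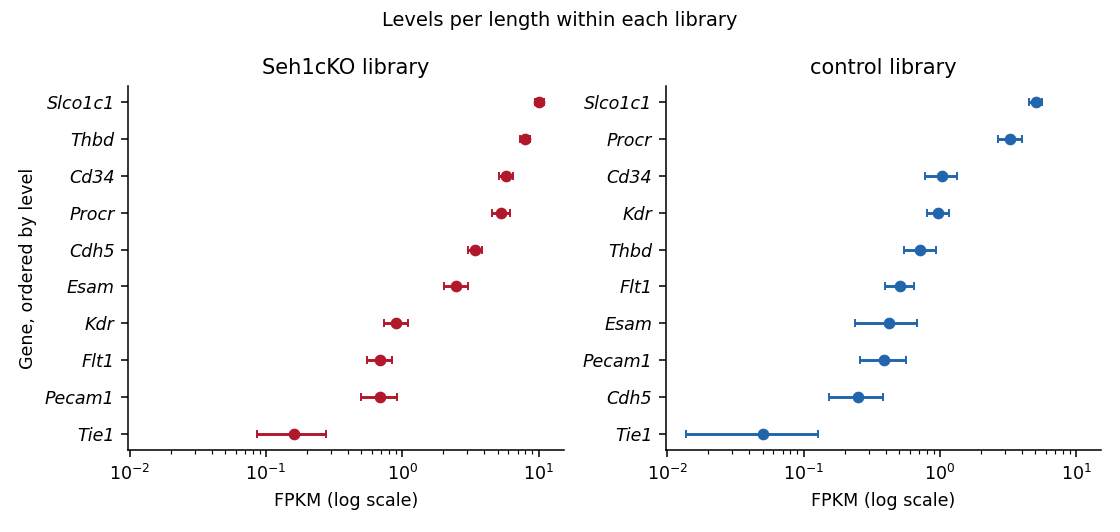
Deposited FPKM (log scale) of the 10 genes, sorted within the Seh1cKO library (left) and the control library (right), with the exact 95% counting interval of the count carried to FPKM. Slco1c1 is highest and Tie1 lowest in both libraries, and Thbd and Cdh5 stand higher in the Seh1cKO order.

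The label of endothelial genes was set beside 5 further genes that define endothelial identity. They were Cldn5, the claudin of brain endothelial tight junctions, the ETS factor Erg, Tek, Emcn and the SOX factor Sox17. Together these 5 had 6 reads in Seh1cKO and 7 in control, with no single gene above 3 reads in Seh1cKO or 4 in control. Cldn5 had 1 read in Seh1cKO and 0 in control, Erg 1 read in Seh1cKO and 0 in control, and Sox17 0 in Seh1cKO and 1 in control. Cdh5 alone had 284 reads in Seh1cKO. The defining set was thus at or near 0 in both libraries, at levels that 3 reads (0.146 CPM in Seh1cKO and 0.145 CPM in control) bound closely. These 5 markers go against the label, but they are a part of a list of 42 other endothelial genes. That list was chosen with earlier results of these data known. Of the 42 genes 20 were measured, among them Plvap and Vwf, and 4 were at least 2-fold higher, beside 2.86% of all measured genes. The 5 markers alone therefore do not settle the label, and the 10 genes are called by their symbols.

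**Figure D4:**
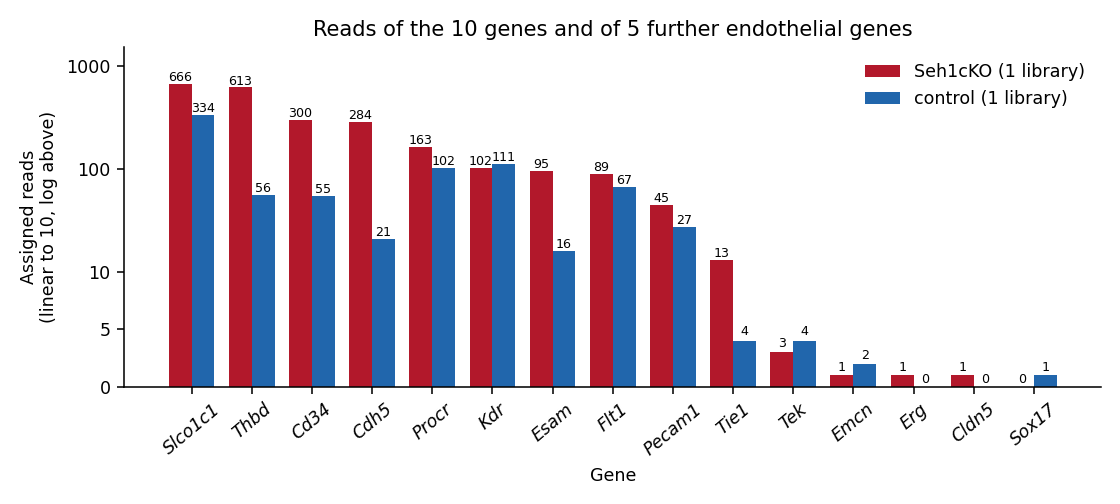
Assigned reads (linear to 10, logarithmic above) of the 10 genes and of Tek, Emcn, Erg, Cldn5 and Sox17, with Seh1cKO in red left of control in blue. The 5 defining genes on the right have 0 to 4 reads in either library, where Thbd has 613 in Seh1cKO and 56 in control.

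The full list of 42 other endothelial genes was divided. Of these, 22 were under the floor, among them the transcription factors Fli1, Sox18, Tal1 and Lyl1 with at most 12 reads each in either library. Of the 20 measured, 4 were at least 2-fold higher, beside 2.86% of all measured genes, and none at least 2-fold lower. The other 16 were in between, and the median log2 ratio of the 20 was 0.28. Eng, endoglin, a coreceptor for TGF-beta family ligands, had 272 reads in Seh1cKO and 61 in control, a ratio of 4.49 (3.39 to 6.03). Acvrl1, the ALK1 receptor that works with endoglin, had 102 reads in Seh1cKO and 22 in control, a ratio of 4.67 (2.92 to 7.77). Adgrl4, an adhesion receptor of vessels, had 78 reads in Seh1cKO and 16 in control, a ratio of 4.91 (2.84 to 9.003). Icam1, a leukocyte adhesion protein induced by cytokines in many cell types, was at 46.9 CPM in Seh1cKO and 21.7 CPM in control. On the other side, Vwf, the von Willebrand factor of endothelium and platelets, had 141 reads in Seh1cKO and 253 in control, a ratio of 0.561 (0.453 to 0.692). Plvap, the diaphragm protein of fenestrated vessels, had 424 reads in Seh1cKO and 491 in control, a ratio of 0.869 (0.761 to 0.992).

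Genes enriched in brain endothelium were mostly close to equality. Of 25 listed, 20 were measured, with a median log2 ratio of 0.39. Of the 20, 2 were at least 2-fold higher and none at least 2-fold lower, beside 2.86% and 1.29% of all measured genes. The 2 were Foxf2, a forkhead factor of brain pericytes and vessels, with 73 reads in Seh1cKO and 14 in control (ratio 5.25, 2.94 to 10.1), and Adgra2 (GPR124), the Wnt7 coreceptor of brain vessels, with 365 reads in Seh1cKO and 124 in control (ratio 2.96, 2.41 to 3.66). The transporters that glia also express were abundant and differed little: Slc2a1 (GLUT1) was at 189 CPM in Seh1cKO and 177 CPM in control. Mfsd2a, the lysolipid transporter of the barrier, was at 140 CPM in Seh1cKO and 165 CPM in control. Abcb1a, the P-glycoprotein efflux pump, had 17 reads in Seh1cKO and 6 in control.

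Markers of other cells that can carry some of these genes differed between the same libraries. Of 20 epithelial and mesothelial markers 14 were measured. Of these 11 were at least 2-fold higher in Seh1cKO, beside 2.86% of all measured genes, and none at least 2-fold lower. The other 3 were Krt5, Epcam and Muc1, of which Epcam and Muc1 had log2 ratios below 0. The list summed to 350 CPM in Seh1cKO and 35.3 CPM in control. Krt8, a keratin of simple epithelia and mesothelium, had 1621 reads in Seh1cKO and 16 in control, its partner Krt18 had 1317 in Seh1cKO and 25 in control, and the mesothelial surface protein Msln had 513 in Seh1cKO and 2 in control. In the same list Lrrn4 had no reads in either library, and the mesothelial genes Upk3b and Wt1 had 0 reads in Seh1cKO, against 2 for Upk3b and 1 for Wt1 in control. Of 13 fibroblast markers 12 were measured and 7 were at least 2-fold higher, with a sum of 902 CPM in Seh1cKO and 344 CPM in control. Pdgfra, which is also among the listed oligodendrocyte lineage genes, gave 277 CPM in Seh1cKO and 156 CPM in control of the fibroblast sum. Pdgfrb, a receptor of pericytes and fibroblasts, was at 28.3 CPM in Seh1cKO and 8.10 CPM in control, a ratio of 3.49 (2.93 to 4.16). It was the 1 of 8 measured mural genes at least 2-fold higher, beside 2.86% of all measured genes, and none was at least 2-fold lower. The mural list summed to 410 CPM in Seh1cKO and 271 CPM in control, and in it Higd1b had no reads. Cspg4, also among the oligodendrocyte lineage genes, gave 148 CPM in Seh1cKO and 98.8 CPM in control of the mural sum. The part of these cells in the values of Thbd, Cd34, Cdh5 and Esam was not tested.

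Markers of blood cells and microglia, which can carry Pecam1, Cd34 and Esam, did not share 1 direction. Among those of platelets and progenitors, Itga2b, an integrin of platelets, had 310 reads in Seh1cKO and 417 in control, Gp1bb, a platelet adhesion receptor subunit, 274 in Seh1cKO and 960 in control, and Kit, the stem cell factor receptor, 186 in Seh1cKO and 121 in control. Ptprc, the pan-leukocyte CD45, had 14 reads in Seh1cKO and 2 in control, and the platelet gene Pf4 had 15 reads in Seh1cKO and 2 in control, while Gp6, Treml1 and Cd3e had none in either. The blood and platelet list of 13 genes, 4 of them measured, summed to 44.5 CPM in Seh1cKO and 80.9 CPM in control. Of these sums Gp1bb, the 1 of the 4 at least 2-fold lower, gave 13.3 CPM in Seh1cKO and 46.3 CPM in control. The part of these cells in the values of the 10 genes was not tested. Of 11 microglia genes 4 were measured and 1, Tmem119, was at least 2-fold higher, beside 2.86% of all measured genes. The microglia list summed to 20.3 CPM in Seh1cKO and 10.3 CPM in control. The 14 oligodendrocyte lineage genes, by contrast, were at least 2-fold lower in 10 cases and within 2-fold in 4, with a median log2 ratio of -1.89. Over all measured genes 1.29% were at least 2-fold lower.

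**Figure D5:**
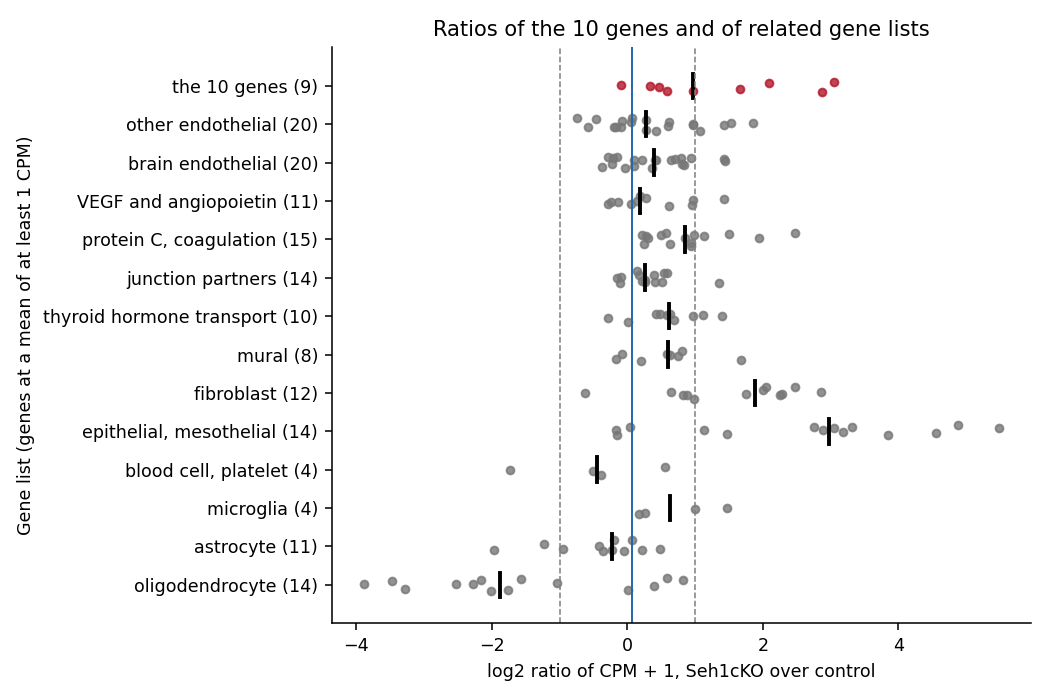
log2 ratio (CPM + 1, Seh1cKO over control) of each measured gene of the 10 (red) and of related lists (grey), with the number of measured genes in brackets, black bars for list medians, a blue line at the median of all measured genes (0.07) and dashed lines at 2-fold. The measured 9 of the 10 genes have a median of 0.96, the other endothelial genes one of 0.28, and the epithelial and fibroblast markers stand furthest right; the vertical scatter within a row has no meaning.

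In the authors' deposited table of differences, 5 of the 10 genes are listed, all as higher in Seh1cKO. The authors' deposited table holds 896 genes, 659 of them higher in Seh1cKO, which is 4.79% of the number of measured genes, and 237 lower. The authors' deposited table gives log2 fold changes of 3.77 for Cdh5, 3.46 for Thbd, 2.56 for Esam, 2.49 for Cd34 and 1.01 for Slco1c1, which equal the log2 ratios of the deposited FPKM. Its false discovery rates for these genes run from 2.15e-118 (Thbd) to 4.31e-14 (Esam) in the authors' deposited table, for 1 library per genotype and by a test that the sources used here do not name. Kdr, Flt1, Pecam1, Procr and Tie1 are not in that table.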

How the data were processed

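Total RNA was sequenced from 1 Seh1cKO and 1 control library. Per the file headers, the authors deposited for each gene and library an FPKM value beside an expected count (an estimated read count). A further table deposited by the authors holds log2 fold changes, p-values and false discovery rates. Per the submitters' processing notes, HTSeq, StringTie and mm10 were used; the aligner and the use of strand were not stated. Expected counts, not whole for 29.5% of Seh1cKO and 29.3% of control genes, were rounded; genes absent from a table were set to 0. CPM is the rounded count per 1000000 assigned reads. The 10 genes were found by symbol, and 18611 of 18651 listed genes matched RefSeq GRCm38.p6. Overlapping non-coding genes of Cdh5, Kdr, Flt1 and Cd34 had at most 4 reads. With 1 library per group no test was possible, and the intervals, exact at 95%, cover counting error only, without molecular identifiers. The calculation was tested on simulated data. Python 3.11.15, pandas 2.3.3 and scipy 1.17.1 were used.

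The 10 genes and the 14 context lists were chosen with earlier results of these data known. Named genes are the 4 of largest absolute log2 ratio and the 2 most abundant of each list, with set partners; not all are printed. Vwf, Plvap, Slc2a1, Mfsd2a, Abcb1a, Slco1a4, Lyl1, Ptprc, Pf4 and the genes named as at 0 reads were chosen after their values were seen. Genes such as Flt4, Tek, Emcn, Podxl, Slc7a5 and Pdgfra stand in 2 lists. Alternatives were pseudocounts of 0.1 and 5 CPM, other scalings, FPKM, other floors and leaving out chromosomes X and Y; omitting the pseudocount was added after seeing the data.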

Additional observations from a re-analysis of the deposited data

How the results depend on the processing

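The count of 4 genes at least 2-fold higher held after rescaling to upper quartiles or to the median of ratios, on deposited FPKM, and without chromosomes X and Y. It was 3 with a pseudocount of 5 CPM, where Esam had a log2 ratio of 0.74. It was 6 with a pseudocount of 0.1 CPM or with none, where Slco1c1 and Tie1 joined, the second of them under the floor; with none, 4.91% of measured and 14.3% of all listed genes passed. No gene was at least 2-fold lower under any of these 7 settings, and none of the 10 log2 ratios changed sign under the 6 planned ones. The size of the log2 ratio of Cdh5 depended on the pseudocount, from 1.64 at 5 CPM to 3.64 at 0.1 CPM. Over all measured genes, the count at least 2-fold higher moved from 394 to 637 with a pseudocount of 0.1 CPM, 141 with 5 CPM, 228 with a floor of 5 CPM and 204 on FPKM, and the count at least 2-fold lower from 178 to 116 with a pseudocount of 5 CPM. On FPKM 58.0% of the genes past 2-fold were higher, against 68.9% on CPM. The median of the other endothelial list was -0.02 with a floor of 5 CPM; none of the other 10 list medians tried changed sign. The medians of the Cd34 relatives, blood and microglia lists, with 4 measured genes each, were not tried. Depth limits the ratios of genes with few control reads, such as Tie1 (4), Esam (16), Cdh5 (21) and Pecam1 (27), and no library could be left out. No paired analysis was possible because each genotype has 1 library.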

Other observations

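The neighbours of the 10 genes on their chromosomes did not reach 2-fold. The nearest protein-coding gene on each side, in the RefSeq annotation of GRCm38.p6, gave 20 neighbours, of which 13 were measured. None of the 13 was past 2-fold either way, with log2 ratios from -0.18 to 0.77, beside 2.86% higher and 1.29% lower among all measured genes. Cd93, a lectin-type receptor of endothelium 28463 bases from Thbd, had 54 reads in Seh1cKO and 51 in control, a ratio of 1.07 (0.713 to 1.59), where Thbd had 613 in Seh1cKO and 56 in control. Bean1, 25875 bases from Cdh5, had 37 reads in Seh1cKO and 41 in control. Cdh11, the mesenchymal cadherin on the other side of Cdh5, was at 58.8 CPM in Seh1cKO and 59.6 CPM in control. Plxna2, a semaphorin receptor beside Cd34, was 1.62-fold higher (1.47 to 1.80), and Pde3a, a phosphodiesterase beside Slco1c1, 1.95-fold higher (1.42 to 2.70).

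Genes annotated to angiogenesis in the deposited tables were also counted, a list chosen after the values were seen. Of the 10 genes only Flt1, Tie1 and Cd34 carry that term there. Without them 105 genes were measured, with a median log2 ratio of 0.23 beside 0.07 for all measured genes. Of the 105, 16 were past 2-fold upwards and 1 downwards, beside 2.86% and 1.29% of all measured genes. Shh, the secreted Hedgehog ligand, had 632 reads in Seh1cKO and 77 in control, a ratio of 8.26 (6.51 to 10.6). Adm, the vasodilator peptide adrenomedullin, had 1431 reads in Seh1cKO and 467 in control, a ratio of 3.08 (2.78 to 3.43). Tgfbr2, the type II TGF-beta receptor, had 556 reads in Seh1cKO and 183 in control, a ratio of 3.06 (2.58 to 3.63). The 1 lower gene was Lect1, chondromodulin, an inhibitor of vessel growth in cartilage, with 57 reads in Seh1cKO and 237 in control, a ratio of 0.242 (0.178 to 0.324).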
